A study of Mus musculus with 16 samples.

Results

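A group of 9 genes of gluconeogenesis and the fasting response of the liver was followed across perfused livers of mice with and without the kinase Perk. They are Pck1, G6pc, Fbp1, Tat, Ppargc1a, Ppara, Cpt1a, Pdk4 and Igfbp1. Every probe set that the platform annotation assigns to exactly 1 of these symbols was taken, which gave 19 of the 45101 probe sets on the array. Of these, 18 were among the 27000 probe sets bright enough to be tested. The exception was the dimmest Pck1 probe set, 1455209_at, whose signals of 0.151 to 9.96 stayed under the 15.1 reached by spike-in control RNAs that were not added.

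The livers came from mice aged 3 to 6 months that were fed without restriction. Perk (gene symbol Eif2ak3) is the kinase of the endoplasmic reticulum that phosphorylates eIF2 alpha when unfolded proteins build up. The Perk-/- animals carried an Alb/Cre transgene, so that the deletion was driven by the albumin promoter in hepatocytes, and the Perk+/+ animals were their wild-type littermates. Each liver was perfused in a single pass with buffer containing 0.1 mM CaCl2, either without (-tBuHQ) or with (+tBuHQ) a di-tert-butylhydroquinone, which blocks calcium uptake into the endoplasmic reticulum. The series title and its design text give this compound different ring positions, and no dose is used here. RNA was either total liver RNA, called unfractionated, or that of the polysomes, the mRNAs with several ribosomes, after separation on sucrose of 20 to 47%. The 8 groups of genotype, treatment and fraction had 2 arrays each, 16 in all, and RNA from 2 livers was pooled for each array. Pooling hides the spread between single animals, and whether the unfractionated and polysome arrays of a number share livers is not stated. The perfused organ held non-parenchymal cells that do not express albumin, and fewer cells of a type cannot be told apart from less RNA per cell.

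Before the results, 3 features of the arrays bear on every value. First, the authors' separate table of z scores names each of its 16 columns by group, and all 16 match, by their values, an array whose sample title gives the opposite treatment, with genotype and fraction as titled. Treatment is given here by the sample titles. By the names in the z score table, every tBuHQ difference below would change sign and the untreated and tBuHQ groups would trade places, while genotype and fraction differences averaged over both treatments would be unaltered. Second, replicate 2 of the tBuHQ wild-type polysome group had a ratio of 3' to 5' Gapdh signal of 5.60, against 0.735 to 0.859 on the other 15 arrays. In addition, 3 of the 8 unfractionated arrays stood apart, namely both of untreated wild-type liver and replicate 1 of tBuHQ knockout liver: they correlated at 0.973 to 0.975 with each other and at 0.948 to 0.964 with the other 5. On those 3 arrays the summed signal of stellate cell markers was 1549 to 1864 against 559 to 852 on the other 5. That of sinusoidal endothelial markers was 1994 to 2299 against 844 to 1246. The macrophage sum overlapped, at 1927 to 2391 against 1384 to 2213. So did the hepatocyte sum, at 96558 to 106435 against 95984 to 133906, although the hepatocyte marker Hnf4a was higher there, at 2085 to 2601 against 838 to 1437. All 7 hepatocyte markers with a named probe set, albumin included, exceeded the level of the absent spike-ins on every array. The place of the brightest of 3 Perk probe sets relative to the deleted exons is not known here. That probe set read 26.3 to 49.2 on the 8 knockout arrays and 46.1 to 216 on the 8 wild-type arrays. Of the knockout arrays, 7 lay below every wild-type array. The average genotype difference was -1.31 ± 0.18 (log2, SE, limma adjusted p = 0.0265). This average counts both fractions as separate samples, and its SE may be too small if they share livers.

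Gluconeogenesis rebuilds glucose from lactate, glycerol and amino acids, and in liver its pace is set largely by how much of a few enzymes is made. Glucagon acts through cyclic AMP and the factor CREB, glucocorticoids through their receptor, and insulin opposes both by keeping FOXO1 out of the nucleus. During fasting the coactivator PGC-1 alpha (Ppargc1a) raises the enzyme genes, and the nuclear receptor PPAR alpha (Ppara) raises fatty acid oxidation, which supplies the energy.

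The region at the start of a gene is where DNA elements for those hormones are usually sought, and 5 such regions are shown because cyclic AMP or insulin is known to act on the gene there or because, for Ppara, most of the differences below were found on it. They are RefSeq sequences of GRCm38.p6 on the plus strand for Pck1 (chr2:173152823-173153122), Ppara (chr15:85735526-85735825), G6pc (chr11:101367466-101367765) and Igfbp1 (chr11:7197537-7197836), and on the minus strand for Ppargc1a (chr5:51567676-51567975). Each holds 300 bases around 1 annotated transcript start, written in the direction of the gene. The Ppargc1a and Ppara windows lie inside the gene spans of chr5:51454249-52115853 and chr15:85734910-85806851, as do those searched for Cpt1a and Tat. Only 1 window was searched for each of the 9 genes, so motifs at other starts would be missed. Capitals mark the cyclic AMP response half-site TGACG or, on the opposite strand, CGTCA, the insulin response core CAAAACA or, on the opposite strand, TGTTTTG, and the TATA box TATAAA.
Pck1 promoter: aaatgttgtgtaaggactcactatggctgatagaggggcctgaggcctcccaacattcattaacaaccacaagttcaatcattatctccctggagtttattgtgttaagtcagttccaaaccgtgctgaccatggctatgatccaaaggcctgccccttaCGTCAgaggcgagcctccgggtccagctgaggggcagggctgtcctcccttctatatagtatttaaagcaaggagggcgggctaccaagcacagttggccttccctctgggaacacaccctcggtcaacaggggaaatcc
Ppargc1a promoter: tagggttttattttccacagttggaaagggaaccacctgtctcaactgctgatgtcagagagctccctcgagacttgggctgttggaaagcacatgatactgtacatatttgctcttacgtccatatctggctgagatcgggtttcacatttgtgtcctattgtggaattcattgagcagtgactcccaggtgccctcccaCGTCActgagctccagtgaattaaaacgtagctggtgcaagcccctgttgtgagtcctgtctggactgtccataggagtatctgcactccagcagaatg
Ppara promoter: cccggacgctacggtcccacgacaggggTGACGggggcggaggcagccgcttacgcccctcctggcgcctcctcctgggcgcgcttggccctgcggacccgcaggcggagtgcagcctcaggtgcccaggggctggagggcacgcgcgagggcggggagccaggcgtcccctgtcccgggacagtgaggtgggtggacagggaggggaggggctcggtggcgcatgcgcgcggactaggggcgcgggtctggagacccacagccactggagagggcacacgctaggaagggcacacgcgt
G6pc promoter: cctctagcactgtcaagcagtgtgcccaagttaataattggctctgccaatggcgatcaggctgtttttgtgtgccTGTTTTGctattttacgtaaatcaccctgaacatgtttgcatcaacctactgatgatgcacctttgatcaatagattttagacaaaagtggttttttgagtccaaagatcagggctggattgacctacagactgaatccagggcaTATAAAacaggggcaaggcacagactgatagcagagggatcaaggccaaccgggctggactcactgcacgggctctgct
Igfbp1 promoter: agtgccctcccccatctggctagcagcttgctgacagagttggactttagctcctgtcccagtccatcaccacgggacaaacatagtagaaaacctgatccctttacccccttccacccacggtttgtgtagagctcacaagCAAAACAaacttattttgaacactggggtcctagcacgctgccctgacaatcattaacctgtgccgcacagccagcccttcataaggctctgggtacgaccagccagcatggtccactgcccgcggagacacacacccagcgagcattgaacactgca

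The half-site TGACG began at position -90 from the start in Pck1, at -49 in Ppargc1a and at -222 in Ppara. These were 3 of the 9 genes, beside 20.8% of all 32851 promoters of that length searched on both strands. The core CAAAACA began at -108 in Igfbp1, at -174 in G6pc and at -219 in Cpt1a, again 3 of 9, beside 6.28% of all promoters. A TATAAA stood at -29 in G6pc only, 1 of 9, beside 13.6%. The glucocorticoid half-site AGAACA, the PPAR element (a direct repeat with a spacer of 1 base) and the ATF4 element TGATGNAAT were in none of the 9 windows, beside 19%, 0.0396% and 0.965% of all promoters. The other genes lie, in the same build, at chr13:62864753-62888298 (Fbp1), chr8:109986078-109999804 (Tat), chr19:3322326-3385735 (Cpt1a) and chr6:5483351-5496278 (Pdk4). No motif here overlapped another, and a match describes letters and not binding.

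Pck1 encodes cytosolic phosphoenolpyruvate carboxykinase, which commits oxaloacetate to glucose synthesis. Its probe set 1423439_at gave signals of 6828 and 7569 on the untreated wild-type unfractionated arrays and of 9850 and 10977 with tBuHQ. In the knockout these were 8773 and 8841 untreated and 8398 and 11354 with tBuHQ. The wild-type groups did not overlap, with tBuHQ higher, as for 22.2% of all probe sets. The knockout groups overlapped. On polysomes the signals were 7248 and 7844 in untreated wild-type and 7663 and 8067 in tBuHQ wild-type liver. The knockout polysome arrays read 6488 and 7277 untreated and 7760 and 9417 with tBuHQ. The largest tBuHQ difference, in unfractionated wild-type RNA, was 0.53 ± 0.19 (log2, SE), which did not pass (limma, adjusted p = 0.166).

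The second Pck1 probe set, 1439617_s_at, followed the first on 15 arrays, where the ratio of its signal to that of 1423439_at was 0.714 to 0.960. On replicate 2 of the tBuHQ wild-type polysome group this ratio was 0.0255, with signals of 206 and 8067. That is the array with the high Gapdh ratio. The same array read 7.59 for one control probe set of pyruvate carboxylase, the first enzyme of gluconeogenesis from pyruvate, against 314 to 935 elsewhere, while the probe set at its 3' end read 1210, within the range of 541 to 1531 of the others. A pair of Ppara probe sets also parted there, with a ratio of 1449051_at to 1439675_at of 0.304 against 0.667 to 1.31. For Ppargc1a, the ratio of 1460336_at to 1437751_at was 0.659 there against 1.54 to 4.64.

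**Figure D1:**
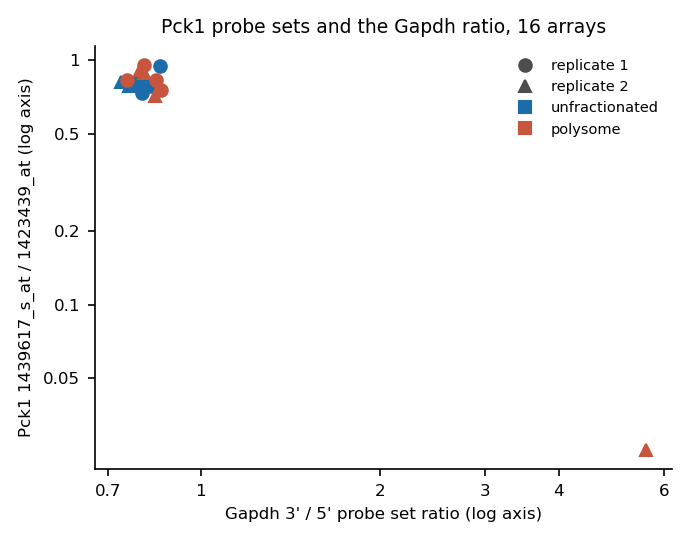
Ratio of 2 Pck1 probe sets (y axis, log scale, no unit) against the ratio of 3' to 5' Gapdh signal (x axis, log scale, no unit) on 16 arrays, 1 point each. Replicate 2 of tBuHQ wild-type polysome RNA lies alone at 5.60 and 0.0255, and the other 15 lie at Gapdh ratios of 0.735 to 0.859.

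G6pc encodes the catalytic subunit of glucose-6-phosphatase, which releases free glucose. Its signals in unfractionated RNA were 5354 and 6941 in untreated wild-type and 3762 and 5849 in tBuHQ wild-type liver. In the knockout they were 3297 and 4437 untreated and 6363 and 5544 with tBuHQ. The knockout groups were separate, with tBuHQ higher, as for 21.5% of all probe sets, and the wild-type groups overlapped. The same held on polysomes, where the share over all probe sets was 20.4%. There the signals were 3292 and 4743 in untreated wild-type, 3402 and 2432 in tBuHQ wild-type, 2769 and 3353 in untreated knockout and 3813 and 5707 in tBuHQ knockout liver. The tBuHQ difference was -0.38 ± 0.29 in wild-type and 0.63 ± 0.29 in knockout unfractionated RNA, and -0.46 ± 0.29 and 0.61 ± 0.29 on polysomes (log2, SE). The genotype difference in the tBuHQ effect was 1.01 ± 0.41 in unfractionated RNA and 1.07 ± 0.41 on polysomes, with adjusted p of 0.195 and 0.986 (limma).

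Fbp1 encodes fructose-1,6-bisphosphatase, the enzyme that bypasses phosphofructokinase on the way to glucose. It was bright on every array, from 11958 to 19826. The untreated wild-type unfractionated arrays read 14032 and 14733 and those with tBuHQ 19826 and 19284. The groups were separate, as were those of 22.2% of all probe sets in this direction. The difference of 0.44 ± 0.20 did not pass (adjusted p = 0.256, limma). Tat, tyrosine aminotransferase, breaks down tyrosine and is a classical glucocorticoid target of the liver. Its signals ran from 6078 to 10612, and its tBuHQ differences lay between -0.05 and 0.25 with an SE of 0.20.

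**Figure D2:**
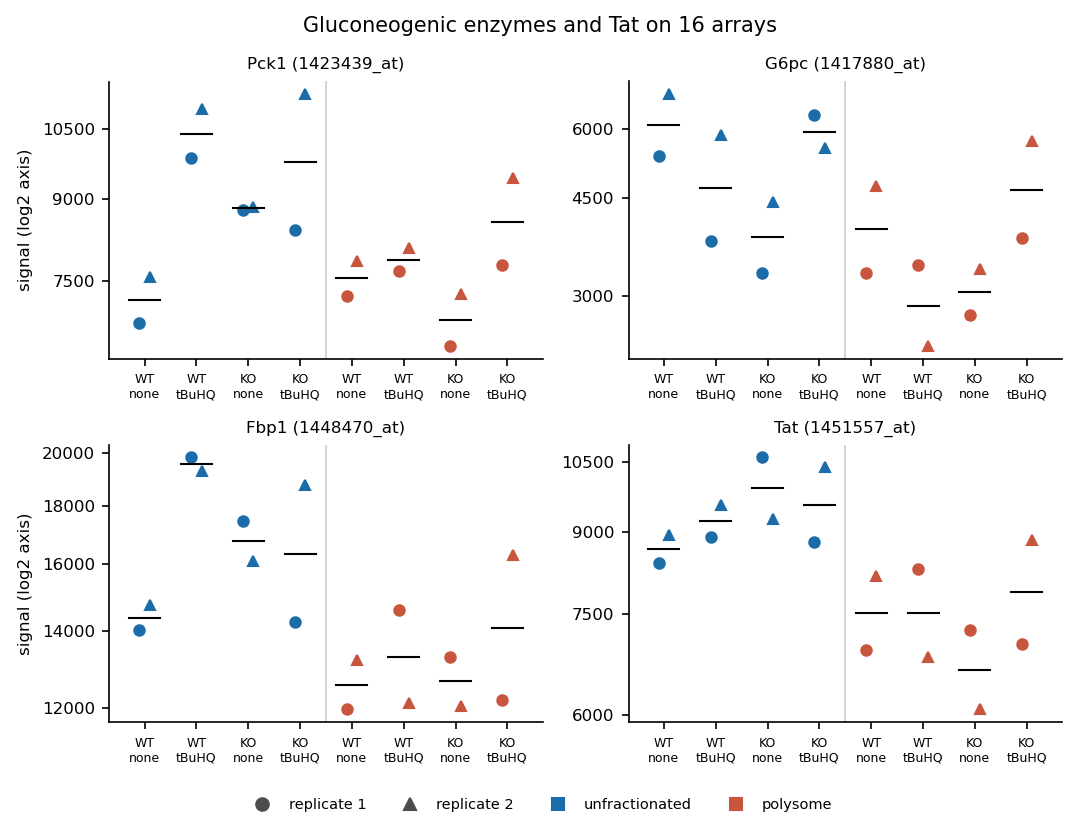
Signals of Pck1, G6pc, Fbp1 and Tat on the 16 arrays (y axis, array signal, log2 scale) by genotype and treatment (x axis, WT for Perk+/+, KO for Perk-/-, none for -tBuHQ), with 1 point per array and a bar at the geometric mean of 2 arrays. Unfractionated arrays are on the left and polysome arrays on the right of each panel, and no treatment or genotype difference of these 4 genes passed the test.

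Ppara was the only member called by limma for treatment, genotype or their interaction. On 1439675_at, the untreated wild-type unfractionated arrays read 884 and 1036 and those with tBuHQ 399 and 243. In the knockout the untreated arrays read 448 and 349, and the tBuHQ arrays 900 and 389. The wild-type groups were far apart, with tBuHQ lower, and 31.6% of all probe sets were separate in that direction. The 2 knockout tBuHQ arrays differed from each other more than their lower member differed from the untreated knockout. Another probe set, 1457721_at, showed the same layout, with 363 and 485, then 137 and 151 in wild-type liver and 166 and 145, then 391 and 199 in the knockout. On 1449051_at the signals were 732 and 1315, then 477 and 305 in wild-type liver, and 511 and 373, then 1180 and 384 in the knockout. The 3 probe sets correlated at 0.913 to 0.959 over the 8 unfractionated arrays, a description of arrays that share their RNA.

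Between untreated and tBuHQ wild-type liver, Ppara fell in unfractionated RNA by 1.57 ± 0.34 on 1439675_at and by 1.45 ± 0.30 on 1457721_at (log2, SE; limma adjusted p = 0.0322 and 0.0294). These 2 were the only calls among the 18 probe sets, all lower, where 2.22% of the 27000 probe sets were called in either direction and 2.09% were called lower. The remaining probe set gave -1.33 ± 0.56 (adjusted p = 0.23). Among the 18, 11 had an unadjusted p under 0.05, a looser threshold than that of the calls. No share over all probe sets is given for such counts, here or below, so they cannot show an excess among the members. The median difference of the 18 was -0.74 against -0.07 over all probe sets. Both calls were lost without any 1 of the 4 arrays compared (adjusted p of 0.114 to 0.339), and that of 1439675_at also without either untreated knockout polysome array (0.0506 and 0.0507).

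In the other tBuHQ comparisons no member passed the limma test. By adjusted p, 0.00741% of all probe sets were called in wild-type polysome RNA, and 0% in knockout unfractionated RNA and on knockout polysomes. At the looser unadjusted p under 0.05 there were 3, 4 and 2 of the 18, with no share over all probe sets given. The Ppara difference was 0.57 ± 0.34 on 1439675_at in knockout unfractionated RNA and 0.33 ± 0.34 on wild-type polysomes. The tBuHQ differences on knockout polysomes were positive for 16 of the 18 probe sets, with a median of 0.36 against 0.01 over all probe sets, and 9 of the 18 had both tBuHQ arrays above both untreated arrays, beside 20.4% of all probe sets.

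The Ppara difference was itself different between the genotypes. The tBuHQ effect in unfractionated RNA was 2.14 ± 0.48 higher in the knockout on 1439675_at and 2.24 ± 0.43 higher on 1457721_at (log2, SE; limma adjusted p = 0.0277 and 0.0148). These were 2 of 18 members called, where 3.06% of all probe sets were called and 2.9% in this direction. The difference on 1449051_at was 1.94 ± 0.79 (adjusted p = 0.196). Without the first knockout tBuHQ array, 1 of the 3 that stood apart, the values were 1.55 and 1.78 and the adjusted p 0.161 and 0.085. Both calls were also lost without the second untreated wild-type array, the first wild-type tBuHQ array or either untreated knockout unfractionated array (0.0511 to 0.144), and that of 1439675_at without the first untreated (0.073) or the second tBuHQ wild-type array (0.0972). On polysomes, where 0% of all probe sets were called, none of the 18 was called and 4 had an unadjusted p under 0.05 (limma).

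**Figure D3:**
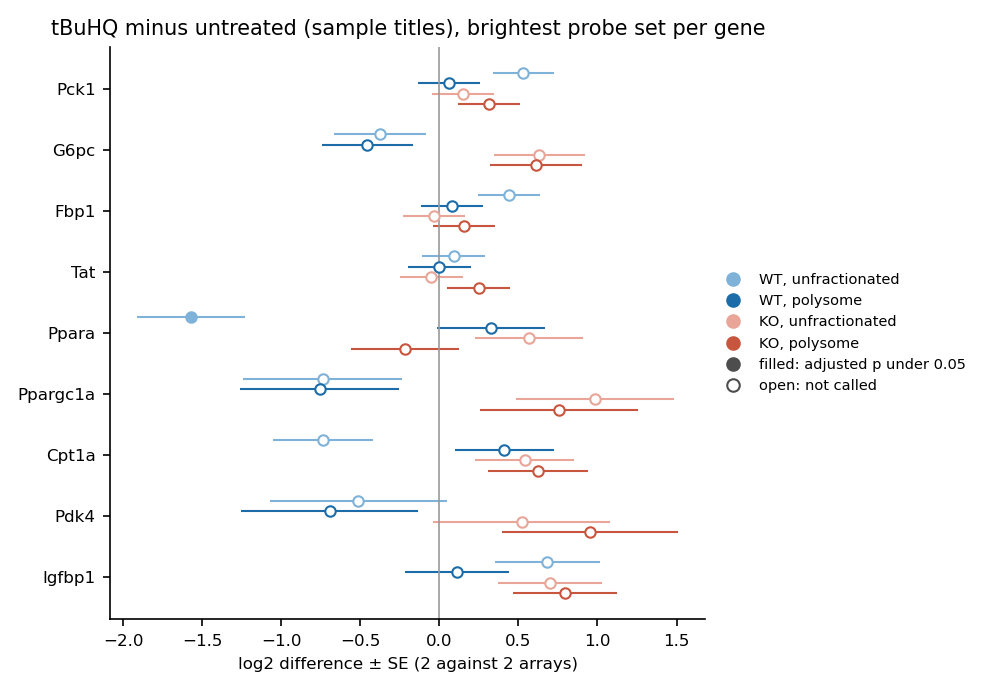
Difference of tBuHQ minus untreated (x axis, log2 scale) with its standard error for the brightest probe set of each gene (y axis), in each genotype and fraction, 2 against 2 arrays. Filled points passed an adjusted p of 0.05: only Ppara in wild-type unfractionated RNA is filled, at -1.57.

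Without treatment, Ppara was also lower in knockout than in wild-type unfractionated RNA, by -1.35 ± 0.30 on 1457721_at (limma adjusted p = 0.0239). It was the only call among the 18, where 3.98% of all probe sets were called and 3.75% were lower. The same difference was -1.24 ± 0.34 on 1439675_at (adjusted p = 0.0535) and -1.14 ± 0.56 on 1449051_at (0.266), and 8 of the 18 had an unadjusted p under 0.05. The call was lost without any 1 of the 4 arrays compared (0.0846 to 0.288). This comparison and the wild-type tBuHQ comparison share the 2 untreated wild-type arrays, which are among the 3 that stood apart. No member was called between genotypes on untreated polysomes (none at an unadjusted p under 0.05), in tBuHQ unfractionated RNA (5 at an unadjusted p under 0.05) or on tBuHQ polysomes (4), where 0.0037% of all probe sets were called in each.

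Over the 8 unfractionated arrays, 5 of the 18 member probe sets were higher on each of the 3 arrays that stood apart than on all other 5, as were 16.1% of all probe sets. These were the 3 of Ppara, Cpt1a 1460409_at (1412 to 1804 against 803 to 1168) and Ppargc1a 1460336_at (192 to 272 against 48.6 to 157). Of the 18, 3 were lower there, as were 8.23% of all: Fbp1 and both tested Pck1 probe sets. The stellate and endothelial marker sums and the hepatocyte marker Hnf4a were high on the same 3 arrays. Their part in these differences was not tested.

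Ppargc1a encodes PGC-1 alpha, the coactivator that links glucagon to the enzyme genes. Its brightest probe set, 1460336_at, read 192 and 272 in untreated and 108 and 157 in tBuHQ wild-type unfractionated RNA. In the knockout it read 48.6 and 136 untreated and 209 and 154 with tBuHQ. Each pair of groups was separate, lower with tBuHQ in wild-type (as 31.6% of all probe sets) and higher in knockout liver (as 21.5%). The genotype difference in the tBuHQ effect of 1.72 ± 0.71 did not pass (limma adjusted p = 0.202). The difference on polysomes was 1.51 ± 0.71 (0.986). It was 0.71 ± 0.62 without replicate 2 of tBuHQ wild-type polysome RNA, the array with the high Gapdh ratio. That array read 75.9 against 264 on replicate 1. The other 4 probe sets were dim, at 7.32 to 117, and 1434100_x_at did not reach the 15.1 of the absent spike-ins on both wild-type tBuHQ and both untreated knockout unfractionated arrays.

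Cpt1a encodes the liver form of carnitine palmitoyltransferase, which admits fatty acids into mitochondria, and is a PPAR alpha target. On 1460409_at the unfractionated signals were 1735 and 1412 in untreated and 861 and 1010 in tBuHQ wild-type liver. In the knockout they were 1168 and 803 untreated and 1804 and 1111 with tBuHQ. The wild-type groups were separate, with tBuHQ lower, as for 31.6% of all probe sets. Their difference was -0.74 ± 0.31 (limma adjusted p = 0.236). The 3 Cpt1a probe sets disagreed, with correlations of 0.26 to 0.70 over 16 arrays, and 1434866_x_at read lowest in the tBuHQ knockout (51.0 and 35.2).

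Pdk4 encodes a pyruvate dehydrogenase kinase, which spares pyruvate for glucose synthesis. It varied widely between arrays of a group: the first and second tBuHQ knockout arrays read 713 and 325 in unfractionated RNA and 773 and 220 on polysomes. With tBuHQ, wild-type arrays read 87.6 and 261 in unfractionated RNA and 101 and 176 on polysomes. Averaged over the 4 genotype comparisons, Pdk4 was 0.87 ± 0.28 higher in the knockout, which did not pass (limma adjusted p = 0.319). Unfractionated and polysome arrays count as separate samples in this average, so its SE may be too small if they share livers. In that average 0.0185% of all probe sets were called, none of them a member, and 2 members had an unadjusted p under 0.05.

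Igfbp1 encodes an insulin-repressed binding protein that liver secretes to hold back insulin-like growth factors. In unfractionated wild-type RNA it read 4960 and 4795 untreated and 5298 and 11605 with tBuHQ. In the knockout it read 3737 and 5535 untreated and 7838 and 6997 with tBuHQ. On polysomes the untreated arrays read 2239 and 3746 in wild-type and 1871 and 2400 in knockout liver, and the tBuHQ arrays 2739 and 3575, and 3606 and 3759. Its tBuHQ difference was positive in all 4 comparisons, from 0.11 to 0.79, and averaged 0.57 ± 0.16. That was the smallest p of any member in this average and did not pass (limma adjusted p = 0.336). Here too both fractions count as separate samples, so the SE may be too small if they share livers. In that average 0.0148% of all probe sets were called, no member among them, and 2 members had an unadjusted p under 0.05.

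**Figure D4:**
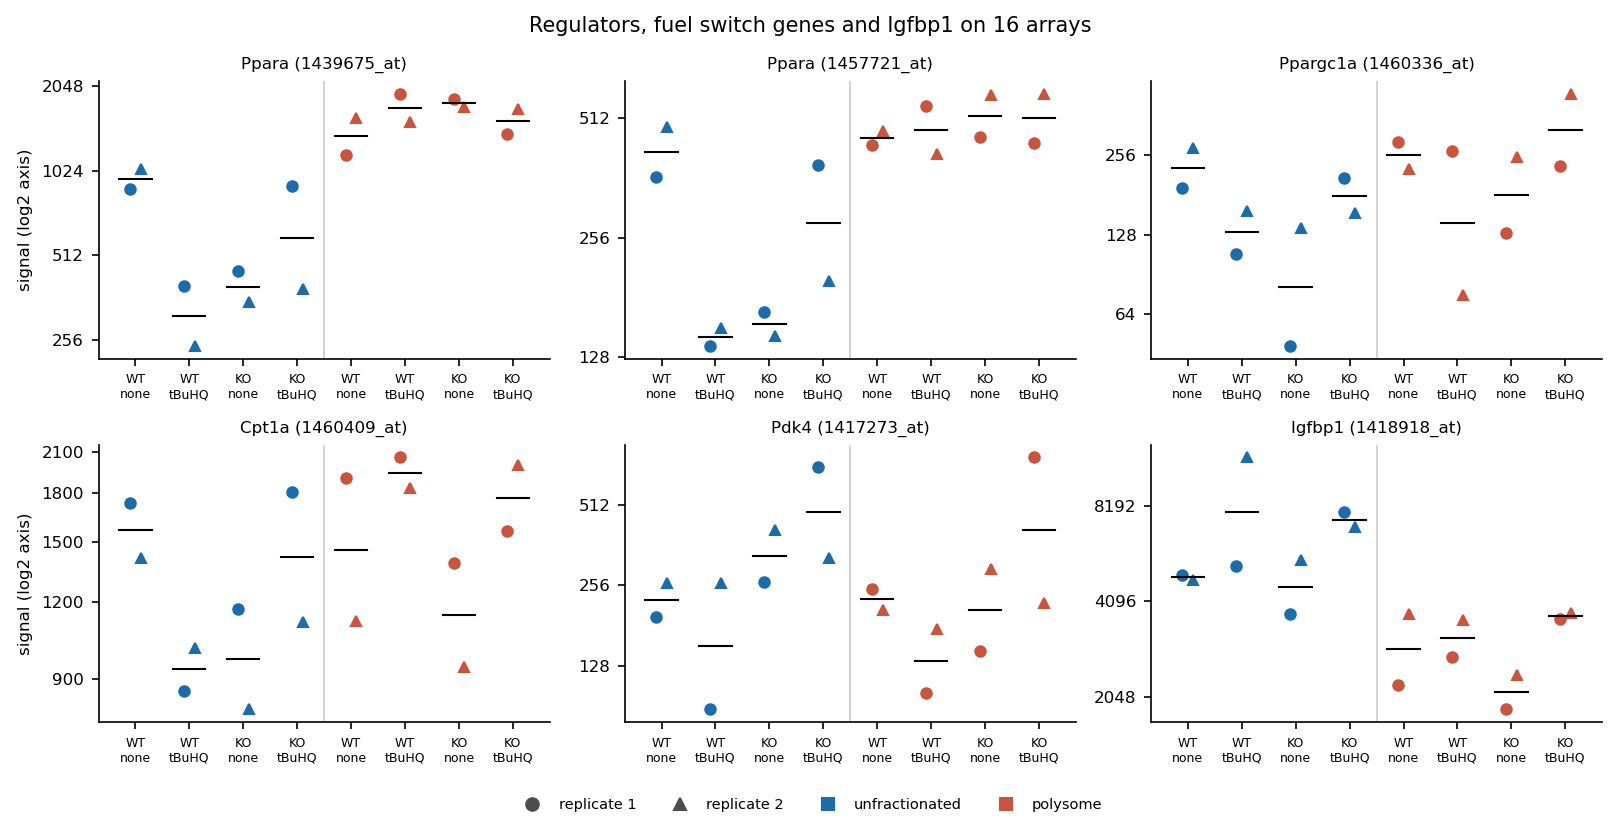
Signals of 2 Ppara probe sets, Ppargc1a, Cpt1a, Pdk4 and Igfbp1 on the 16 arrays (y axis, array signal, log2 scale) by genotype and treatment (x axis, WT for Perk+/+, KO for Perk-/-, none for -tBuHQ), with 1 point per array and a bar at the geometric mean of 2 arrays. On Ppara 1439675_at the 8 polysome arrays at 1168 to 1919 all lie above the 8 unfractionated arrays at 243 to 1036.

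More members differed between the fractions than between treatments or genotypes. On polysomes Ppara 1439675_at read 1168 and 1581 in untreated and 1919 and 1523 in tBuHQ wild-type liver, and 1847 and 1728 in untreated and 1388 and 1695 in tBuHQ knockout liver. All 8 polysome arrays exceeded all 8 unfractionated arrays, which was so for 1.91% of all probe sets. Ordered by mean, the groups ran from tBuHQ wild-type (321 ± 110, SD, n = 2), untreated knockout (398 ± 70.5) and tBuHQ knockout (645 ± 361) to untreated wild-type (960 ± 107) in unfractionated RNA, and then over the 4 polysome groups from 1375 ± 292 to 1788 ± 84.4. Neighbours in this order overlapped, except that every polysome group lay above untreated wild-type unfractionated RNA. The difference in the tBuHQ effect between fractions in wild-type liver was 1.90 ± 0.48 on 1439675_at, polysome minus unfractionated, and did not pass (limma adjusted p = 0.132). Without the polysome array with the high Gapdh ratio this difference was 2.06 ± 0.51. With all arrays no member was called in that test or in the same test in the knockout, with 0% of all probe sets called in each. At an unadjusted p under 0.05 there were 8 and 0 members.

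Averaged over the 4 conditions, polysome against unfractionated RNA called 10 of the 18 members, where 21.6% of all probe sets were called. Of them 6 were higher (12.9% of all) and 4 lower (8.69% of all), an average chosen after the single comparisons had been seen. All 3 Ppara probe sets rose, by 1.59 ± 0.17, 1.03 ± 0.28 and 1.05 ± 0.15 (log2, SE; limma adjusted p = 1.55e-05, 0.0149 and 0.00017). Of the 5 Ppargc1a probe sets 3 rose, by 0.62 to 0.71 (adjusted p = 0.00168 to 0.0128), and the brightest one gave 0.51 ± 0.25 (0.168). Igfbp1 fell by 1.04 ± 0.16 (adjusted p = 0.000355), with 6 of 8 polysome arrays below all unfractionated arrays.

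The lower calls also held the 3 enzyme genes G6pc, Fbp1 and Tat, which fell by 0.50 ± 0.15, 0.34 ± 0.10 and 0.34 ± 0.10 (limma adjusted p = 0.0218, 0.0203 and 0.024). With quantile normalization over all arrays these were -0.22, -0.02 and -0.00 and not called (0.344, 0.903 and 0.988), so the fall of these bright genes depends on the scaling. Hepatocyte markers, bright apart from Hnf4a, summed to 95984 to 133906 on unfractionated and 77481 to 99722 on polysome arrays. Hnf4a, at 838 to 3691, went the other way in tBuHQ wild-type (1.32 ± 0.29) and untreated knockout liver (1.58 ± 0.29). In untreated wild-type liver its arrays overlapped between fractions. Leaving out 1 array at a time cost Fbp1 its call in 3 of 16 cases, G6pc in 6 and Tat in 7, with adjusted p of at most 0.0685. Without the filter on low values Fbp1 and Tat were also not called (limma adjusted p = 0.0894 and 0.0777). In the main fit Pck1 1423439_at gave -0.22 ± 0.10 (0.124). Pdk4 gave -0.25 ± 0.28 (0.579).

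**Figure D5:**
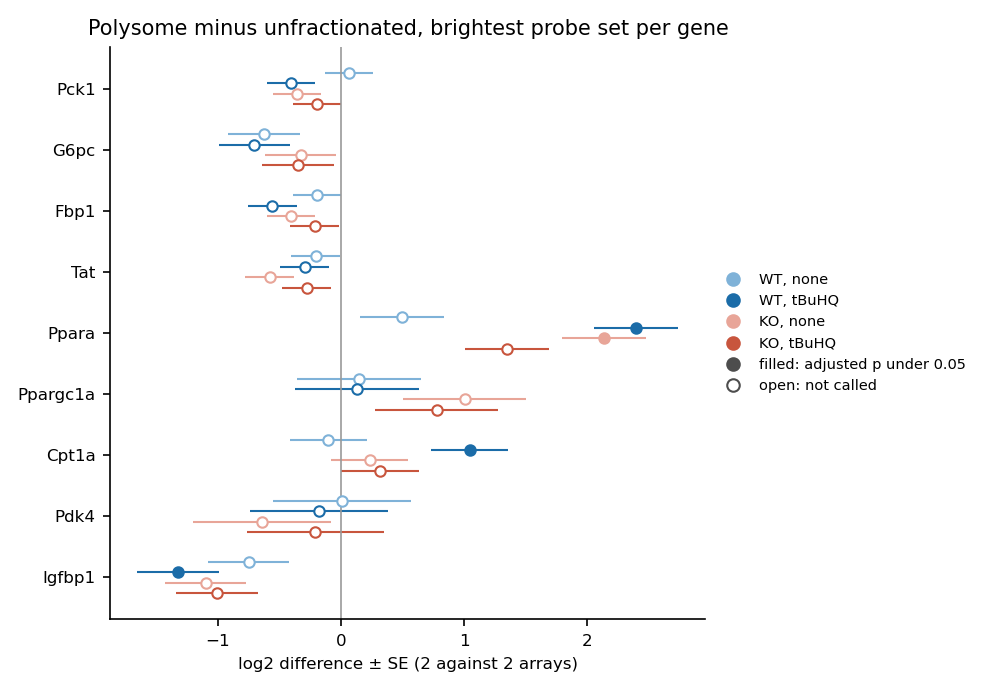
Difference of polysome minus unfractionated RNA (x axis, log2 scale) with its standard error for the brightest probe set of each gene (y axis), in each genotype and treatment, 2 against 2 arrays. Ppara is filled, for an adjusted p under 0.05, at 2.40 in tBuHQ wild-type and 2.13 in untreated knockout liver, and Cpt1a at 1.04 and Igfbp1 at -1.32 in tBuHQ wild-type liver.

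By condition, 8 of the 18 were called in tBuHQ wild-type liver, 7 higher and 1 lower, where 11.2% of all probe sets were called, 7.74% higher and 3.45% lower. Ppara rose by 2.40 ± 0.34 and 1.63 ± 0.30 (limma adjusted p = 0.000887 and 0.00364), and Cpt1a by 1.04 ± 0.31, 1.13 ± 0.31 and 1.57 ± 0.34 on its 3 probe sets. The remaining Ppara probe set, 1449051_at, was not called. It read 2110 and 463 on the polysome arrays, the second being the array with the high Gapdh ratio. Without that array its difference was 2.42 ± 0.47. Ppargc1a rose by 1.10 on 1456395_at and was at least 4.47-fold higher on 1434100_x_at, whose unfractionated arrays were under the absent spike-in level (57.6 and 78.8 against 11.7 and 9.72; adjusted p = 0.00363). Igfbp1 fell by 1.32 ± 0.33 (0.0177). Without the first or the second wild-type tBuHQ unfractionated array 4 calls were left, and without the polysome array with the high Gapdh ratio the Cpt1a probe sets 1460409_at and 1438156_x_at and Ppargc1a 1456395_at were not called (0.0562, 0.108 and 0.0989). Igfbp1 was not called without the second wild-type tBuHQ unfractionated array, the one at 11605 (-0.76, adjusted p = 0.229), without the first wild-type tBuHQ polysome array (-1.13, 0.0603) or with quantile normalization over all arrays (-0.89, 0.118).

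In untreated knockout liver 2 of the 18 were called, both higher, where 6.71% of all were called, 4.37% higher and 2.34% lower: Ppara at 2.13 ± 0.34 and 1.64 ± 0.30 (limma adjusted p = 0.00304 and 0.00609). Neither passed without the second untreated knockout polysome array (0.0538 and 0.095), and 1457721_at not without the second unfractionated one (0.0679), while 4 members were called without either wild-type tBuHQ polysome array. No member was called in untreated wild-type liver (0.4% of all probe sets called, 0.396% lower, 2 members at an unadjusted p under 0.05) or in tBuHQ knockout liver (0.6%, 4 members). Ppara 1439675_at gave 0.50 ± 0.34 and 1.35 ± 0.34 there. These 2 conditions hold the 3 unfractionated arrays that stood apart, which read 884 to 1036 on this probe set against 243 to 448 on the other 5. Without the first tBuHQ knockout unfractionated array, the difference in tBuHQ knockout liver was 1.94 ± 0.34. A fraction difference that varies with condition cannot be told apart here from those 3 arrays.

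The wider pathway was read with 1 probe set per gene. Among 26 regulators of the fasting program, 15 were higher and 2 lower on polysomes averaged over conditions, where 12.9% of all probe sets were higher and 8.69% lower, with a median of 0.59 against -0.01 over all probe sets. The largest were Nr3c1, the glucocorticoid receptor (1.46 ± 0.14), the CREB coactivator Crebbp (1.41 ± 0.15), the insulin receptor substrate Irs1 (1.33 ± 0.13) and Creb1 (1.12 ± 0.14), while the orphan receptors Nr4a1 and Nr0b2 (-0.67 ± 0.16) were lower. With quantile normalization over all arrays 13 were higher and 2 lower, and with any 1 array left out 13 to 16 were higher and 2 lower. In wild-type unfractionated RNA 3 of the 26 were lower with tBuHQ, where 2.09% of all probe sets were, namely Rxra, the partner of PPAR alpha (-2.10 ± 0.42), the insulin receptor Insr (-2.08 ± 0.36) and Irs1 (-1.46 ± 0.27). That count was 0 without any 1 of the 4 arrays compared, 5 without either tBuHQ knockout unfractionated array and 7 without either tBuHQ wild-type polysome array, the one with the high Gapdh ratio included. The genotype difference in that effect was called for 6 of the 26, all positive, beside 2.9% of all probe sets, with Insr at 3.22 ± 0.51. It was called for 0 to 3 without any 1 of the untreated or wild-type tBuHQ unfractionated arrays, for 1 without the first tBuHQ knockout unfractionated array, and for 9 without the second one or either tBuHQ wild-type polysome array. Insr, Rxra and Irs1 were also among the 5 lower in the untreated knockout, beside 3.75% of all probe sets, at -1.98 ± 0.36, -1.67 ± 0.42 and -1.27 ± 0.27, a comparison that shares the untreated wild-type arrays. The 5 became 0 without any 1 of the 4 arrays compared, 3 without any 1 of 6 others (both tBuHQ wild-type unfractionated arrays and the 4 knockout polysome arrays) and with quantile normalization, and 7 without either tBuHQ wild-type polysome or tBuHQ knockout unfractionated array.

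Of the other 18 gluconeogenesis enzymes and carriers tested, 1 was higher and 5 lower on polysomes averaged over conditions, beside the same 12.9% and 8.69% of all probe sets, with a median of -0.11. Mdh1, the cytosolic malate dehydrogenase (-0.67 ± 0.15), Slc37a4, the glucose-6-phosphate carrier (-0.65 ± 0.13), Mdh2 (-0.56 ± 0.14) and Pgk1 (-0.49 ± 0.11) had the largest differences. With quantile normalization 4 were higher and 1 lower, so this list has no settled direction, and the 1 higher gene, Gpt2, was lost without any 1 of 7 arrays while 2 were higher without the array with the high Gapdh ratio. Of 25 fatty acid oxidation and ketogenesis genes, 1 was higher and 8 lower on polysomes, with a median of -0.33, and 1 and 3 with quantile normalization. With 1 array left out 5 to 12 were lower, 5 without either the first untreated knockout unfractionated or the second untreated knockout polysome array. The peroxisomal gene Pex11a was the one that rose (0.75 ± 0.12), and the carnitine carrier Slc22a5 (-0.63 ± 0.17), the thioesterase Acot2 (-0.60 ± 0.12) and Bdh1, which makes the ketone body hydroxybutyrate (-0.59 ± 0.17), fell most. For tBuHQ in wild-type unfractionated RNA the medians of these 2 lists were -0.19 and 0.16, against -0.07 over all probe sets.

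Of 17 amino acid catabolism and urea cycle genes, 7 were lower on polysomes and none higher, beside 8.69% and 12.9% of all probe sets, with Ass1 (-0.93 ± 0.16, on a probe set as dim as 29.9 to 166) and Uroc1 (-0.72 ± 0.15) in front. With quantile normalization 1 was higher and 2 lower, and 8 of the 16 arrays, left out singly, brought the count to 2 to 4, while it was 11 without the second tBuHQ knockout polysome array. Of 14 genes of glycolysis and glucose use, 3 were higher and 4 lower, among them the pyruvate dehydrogenase kinase Pdk1 at 1.09 ± 0.13, and 3 and 2 with quantile normalization. Without any 1 of 7 arrays 2 were lower. Of 8 genes of IGF binding and the growth hormone axis, 3 were lower, namely Igfbp2 (-0.87 ± 0.24), Igf1 (-0.60 ± 0.10) and Igfbp4 (-0.29 ± 0.10), but 1 was higher and 1 lower with quantile normalization, and 1 was higher without the first tBuHQ knockout unfractionated, the first tBuHQ wild-type polysome or the second tBuHQ knockout polysome array, so this list has no settled direction either. Of 8 glucocorticoid targets, Sgk1 alone was called, at -0.39 ± 0.12, and none without any 1 of 7 arrays, while with quantile normalization 1 was higher and 1 lower. For tBuHQ in wild-type unfractionated RNA Tsc22d3 alone was called among these 8 (-1.38 ± 0.34). None was called with quantile normalization or without any 1 of 10 arrays, and 3 were lower without either tBuHQ wild-type polysome array.

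The members did not move as one group. Over the 36 pairs of genes, correlations of log2 signal across the 16 arrays ran from -0.80 (Fbp1 with Ppara) to 0.86 (Fbp1 with Tat), with a median of 0.05. These 16 points share genotype, treatment and fraction and are no independent samples. Fbp1 with Ppara was -0.86 over the 8 unfractionated arrays and 0.56 over the 8 polysome arrays. The genes most like Ppara over the 16 arrays were Taok1, Nfix and Reps2 (0.974, 0.974 and 0.973). Within a fraction they gave 0.952 to 0.975 over the 8 unfractionated arrays and only 0.356 to 0.674 over the 8 polysome arrays. Those most like Igfbp1 over the 16 arrays were Fga, Hsp90b1 and Mettl7a2 (0.924, 0.922 and 0.912). Fbp1 was most like Aldh1a1, Cyp2e1 and Adh1 (0.944, 0.936 and 0.922), Tat most like Acat1, Acaa2 and Etfdh (0.923, 0.909 and 0.904), and Ppargc1a most like Vps13b, Nr2c2 and Garem1 (0.949, 0.936 and 0.935). Cpt1a was most like Ap3d1, Insr and Myh9 (0.886, 0.869 and 0.863), G6pc most like Aplp2, Ceacam1 and Gusb (0.904, 0.893 and 0.891), Pck1 most like Smyd1, Akr1a1 and Cat (0.867, 0.853 and 0.849), and Pdk4 most like Efhd1, Kif3c and Nfkbiz (0.799, 0.783 and 0.780).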

How the data were processed

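The array signal intensity deposited by the authors was used for 16 Affymetrix mouse arrays, a linear value for each of 45101 probe sets, scaled on every array to a trimmed mean of 150, as the values show. How probes were summarised is not stated, and detection calls were not used here. A score table, the authors' z scores for 18697 probe sets, served only to check the labels.

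The platform annotation gave 1 symbol to 34958 probe sets, more than 1 to 932 and no symbol to 9211. For 34754 the symbol was brought up to date by Entrez identifier with a GRCm38.p6 gene table. Genes are named only from probe sets with 1 symbol, and probe set positions within a gene were not used here.

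Signals were turned to log2(signal + 16), which understates differences of dim genes, with no further normalization. The probe sets under the 40th percentile of the mean, and the control probe sets, were left out, and 27000 were tested. limma 3.58.1 (R 4.3.3) fitted the 8 group means by lmFit, followed by eBayes with trend, which left 8 residual and a median of 7.45 prior degrees of freedom. There were 16 contrasts, plus 3 averages over 4 conditions added after the data had been seen, with Benjamini-Hochberg adjustment within each over all tested probe sets and a threshold of 0.05. The fit was tested on simulated data with known changes. The p-values rest on the spread among arrays, which are pools of 2 livers that the labels call biological replicates, and the number of arrays limits the precision. A bound on a fold is the geometric mean of the bright group over 15.1, the highest signal of a spike-in that was not added.

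Replicate numbers were not taken as pairs, since no label ties them to shared livers. Deviations of same-numbered arrays correlated between -0.22 and 0.26 over the 12 comparisons, above 0 in all 4 between fractions, and pancreatic transcripts were high on the same replicate number of both fractions in 2 conditions. Named genes are the members, up to 4 called genes of each context list with the largest differences, and the 3 genes most correlated with each member. The members, lists and alternatives were chosen with earlier results of these data known. Alternatives were quantile normalization over all arrays or within a fraction, other pseudocounts, no filter, 1 probe set per gene, separate fits, replicate blocks and each array left out.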

Additional observations from a re-analysis of the deposited data

Results flagged for a closer look

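The tBuHQ effect on Ppara in unfractionated RNA differed between the genotypes by an interaction term of limma on each of 2 probe sets. On 1439675_at the difference was 2.14 (knockout minus wild-type, log2, SE 0.48, adjusted p = 0.0277), with both wild-type tBuHQ arrays (399 and 243) below both untreated ones (884 and 1036), and with 1 of 2 knockout tBuHQ arrays (900 and 389) above both untreated ones (448 and 349). On 1457721_at it was 2.24 (SE 0.43, adjusted p = 0.0148), with 2 of 2 knockout tBuHQ arrays above both untreated ones. Both draw on the 3 arrays (untreated wild-type replicates 1 and 2, tBuHQ knockout replicate 1) that stood apart from the other 5 unfractionated arrays. By the treatment names of the z score table the sign would turn.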

How the results depend on the processing

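None of the alternatives reversed a called difference: over 25 called differences, 180 of 201 values under other settings and 335 of 400 with 1 array left out stayed on the same side of the threshold, and the rest kept their direction without passing. Calls among the 18 members changed as follows, and the cause was not tested. With 1 array left out, the range was 0 to 2 for tBuHQ in wild-type unfractionated RNA (2 calls), 0 to 2 for the untreated genotype comparison in unfractionated RNA (1), 4 to 8 and 0 to 4 for the fractions in tBuHQ wild-type (8) and untreated knockout liver (2), 0 to 4 for the genotype difference in the tBuHQ effect (2) and 8 to 11 for the average between fractions (10). Among comparisons with 0 calls it was 0 to 2 for genotype on tBuHQ polysomes and for the fraction difference in the wild-type tBuHQ effect, and 0 to 1 for tBuHQ on wild-type polysomes, the fractions in tBuHQ knockout liver, the genotype difference on polysomes and the averages over tBuHQ and over genotype. Quantile normalization over all arrays or within each fraction left 1 call for tBuHQ in wild-type unfractionated RNA, and within each fraction gave 4 between fractions in untreated knockout liver. With 1 probe set per gene, where fewer probe sets are tested, the counts were 1 for tBuHQ in wild-type unfractionated RNA, 3 and 1 for the fractions in tBuHQ wild-type and untreated knockout liver, 1 for the genotype difference and 5 for the average between fractions. Without a filter 5 were called between fractions in tBuHQ wild-type liver. Fits of only the arrays compared, with fewer samples, called 4 for tBuHQ in wild-type unfractionated RNA, 7 between untreated genotypes, and 0 and 6 between fractions in tBuHQ wild-type and untreated knockout liver. Deviations of same-numbered arrays correlated at 0.0654 to 0.259 in the 4 comparisons between fractions and at -0.221 to 0.0998 in the other 8, so that some numbers may be shared between fractions, and the replicate block kept every called difference, with 2 calls for tBuHQ in wild-type unfractionated RNA and 3 between fractions in untreated knockout liver. Crossed numbers in the 3 comparisons with a correlation under -0.1 gave 1 call between genotypes in tBuHQ unfractionated RNA and 0 in the other 2. Arrays give no read depth, and 2 arrays a group limit every statement.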

Other observations

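Acinar pancreas transcripts, which belong to no comparison above, appeared on 4 arrays. The summed signal of 5 pancreatic markers was 2499 and 1865 on the first wild-type tBuHQ unfractionated and polysome arrays and 1752 and 2214 on the first untreated knockout arrays of the same fractions, against 58.6 to 222 on the other 12. The 2 erythroid markers with a named probe set summed to 1877 to 3064 on the 8 unfractionated arrays and 1201 to 1819 on the 8 polysome arrays. That sum was nearly all Alas2 (1186 to 3060), as Hba-a1 read 2.67 to 28.9, around the absent spike-in level of 15.1. Macrophage markers summed to 1384 to 2391 on the unfractionated and 582 to 942 on the polysome arrays.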
